A study of Mus musculus with 4 samples.

Results

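Genes of retinoid synthesis, binding and signalling were examined in mouse cells labelled as cancer-associated fibroblasts (CAFs), a cell type of the tumour stroma. The set comprised 9 genes fixed by symbol: the retinol carrier Rbp4, the retinal dehydrogenases Aldh1a1, Aldh1a2 and Aldh1a3, the cellular retinoic acid binding proteins Crabp1 and Crabp2, and the retinoic acid receptors Rara, Rarb and Rarg. All 9 were found among 23377 genes of the count table. Polyadenylated RNA was sequenced in 4 libraries. The CAFs labelled as associated with resistant tumours (titles RES4) gave replicates 1 and 2, and those labelled as associated with normal tumours (titles WTA) gave replicates 1 and 2; they are called resistant and normal CAFs here. The labels give no strain, age, sex, tumour line, sort or treatment of the animals, and each group carries a single name in its titles, so each may stem from 1 tumour or culture. The design text calls the replicates biological, but nothing says that they came from separate animals or cultures. The p-values measure only how far the 4 libraries vary, and part of that variation may be technical.

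Retinoic acid is made from vitamin A (retinol) in sequential oxidations. Retinol travels in blood bound to RBP4, is oxidised to retinal by alcohol or short-chain dehydrogenases, and is then oxidised irreversibly to retinoic acid by ALDH1A enzymes. CRABP proteins hold retinoic acid in the cytosol or carry it to the nucleus, where RAR and RXR pairs bind DNA and switch target genes, and CYP26 enzymes break it down. In stroma the pathway is best known from pancreatic and hepatic stellate cells, fibroblast precursors that store vitamin A.

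Counted reads totalled 2845237 and 2785936 in the resistant libraries, against 3948066 and 5558541 in the normal libraries. Markers of cell type differed between the groups. Of 10 fibroblast markers, all 9 tested were higher in resistant CAFs, with summed levels of 7730 and 7190 CPM (counts per megaread, after scaling by trimmed means of M values, TMM) in resistant and 3084 and 2536 CPM in normal CAFs, and none lacked reads in all libraries. Of 8 Schwann cell and neural crest markers, all 5 tested were lower, with sums of 9.86 and 9.88 CPM in resistant and 1155 and 1020 CPM in normal CAFs, and Foxd3 had no read in resistant CAFs. Epcam, Cdh1 and Krt5 (epithelium), Tie1 (endothelium), Ptprc and Emr1 (leukocytes) and Adipoq and Lep (adipocytes) had no read in any library. The epithelial sums were 45.5 and 63.7 CPM in resistant CAFs, all from Krt19, and 9.63 and 9.23 CPM in normal CAFs. The endothelial sums were at most 2.65 CPM in any library, and the leukocyte sums were 17.1 and 18.3 CPM in resistant and 7.16 and 7.22 CPM in normal CAFs. Adipocyte markers summed to 15.9 and 24.5 CPM in resistant and 1.24 and 0.168 CPM in normal CAFs, with Fabp4 the largest contributor. Pericyte and smooth muscle markers summed to 298 and 403 CPM in resistant and 561 and 448 CPM in normal CAFs. All 5 of these were tested, and 2 were called higher and 1 lower in resistant CAFs, so the sums do not give the direction of each marker. Acta2 was the largest contributor, with 81.8% and 91.2% in resistant replicates 1 and 2 and 49.2% and 56% in normal replicates 1 and 2. The part of these marker differences in the results on retinoid genes was not tested. In bulk RNA, fewer cells of a type and less RNA per cell cannot be told apart.

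The retinoid genes that differed did so in both directions, also within the CRABP pair. Rbp4 and Crabp1 were higher in resistant CAFs, Aldh1a3 and Crabp2 were lower, and the receptors Rara and Rarg did not pass the test in either direction. Of the 9 genes, 6 passed the filter on low counts (Aldh1a3, Rbp4, Crabp1, Crabp2, Rara, Rarg), and 4 of these passed edgeR's quasi-likelihood test at a Benjamini-Hochberg adjusted p under 0.05, 2 higher and 2 lower. Among all 12001 genes tested, 29.4% passed, 15.5% higher and 13.9% lower. Rbp4 and Crabp1 reached the filter through the resistant libraries alone, so a difference was built into their entry. The groups' ranges lay apart for 4 of the 6 tested retinoid genes, where 64.7% of all tested genes had such ranges, so separation of the ranges alone was no mark of the retinoid genes. The median log2 fold change was 0.26 over the 6 genes and -0.0036 over all genes tested. Scaling by library totals moved the median over all genes by -0.14.

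**Figure D1:**
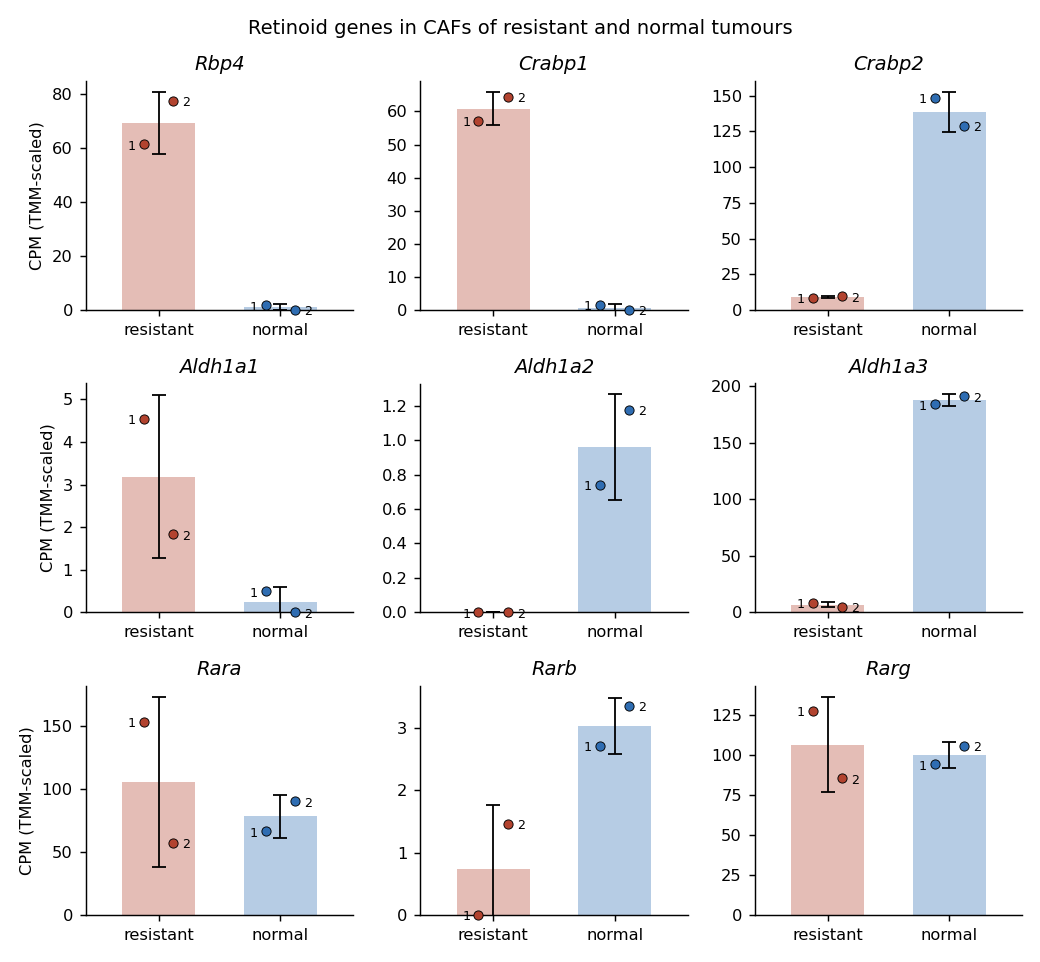
Level of each of the 9 retinoid genes in CPM (linear axes from 0) in resistant and normal CAFs. Bars give the mean, error bars the SD over 2 libraries, and points the libraries with their replicate number; Rbp4 and Crabp1 stand high in resistant CAFs, Crabp2 and Aldh1a3 in normal CAFs, and Rara and Rarg overlap.

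Rbp4, the serum retinol carrier made chiefly by liver and fat, had 61.4 and 77.6 CPM in resistant CAFs (162 and 212 reads), against 1.73 and 0.168 CPM in normal CAFs (7 reads and 1 read). Both resistant libraries were far above both normal libraries. The means were 69.5 ± 11.4 CPM in resistant and 0.948 ± 1.10 CPM in normal CAFs (SD, n = 2 each), a log2 fold change of 6.32 ± 0.69 (SE) with edgeR's adjusted p = 3.56e-05. The size rests on few reads in normal CAFs: it was 8.39 without normal replicate 1 and 5.27 without normal replicate 2, and it passed the test in both fits. The ratio of pooled reads was 87.1 with an exact 95% counting interval of 43.7 to 203. The authors' deposited table gives a log2 fold change of 6.34 with a standard error of 0.69 for Rbp4.

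Upstream of the start sites of the genes that rose, the RefSeq promoter table (build GRCm38.p6, not the mm9 build of the reads) shows unlike layouts. It held 7 of the 9 genes (not Aldh1a3 and Crabp2) with 13 start sites, and the 250 bases before each start were searched on both strands. Crabp1 is printed from chr9:54764498-54764747 (plus strand), with each GGGCGG box or its reverse complement in capitals, and the first of 2 Rbp4 windows from chr19:38124812-38125061 (minus strand), with the TATAAA box in capitals, since both genes rose and their windows show whether they share these elements.
Crabp1: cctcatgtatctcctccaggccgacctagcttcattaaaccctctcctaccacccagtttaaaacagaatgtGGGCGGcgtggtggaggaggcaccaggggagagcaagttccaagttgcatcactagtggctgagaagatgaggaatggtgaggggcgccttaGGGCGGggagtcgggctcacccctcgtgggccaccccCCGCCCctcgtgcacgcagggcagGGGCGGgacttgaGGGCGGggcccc
Rbp4: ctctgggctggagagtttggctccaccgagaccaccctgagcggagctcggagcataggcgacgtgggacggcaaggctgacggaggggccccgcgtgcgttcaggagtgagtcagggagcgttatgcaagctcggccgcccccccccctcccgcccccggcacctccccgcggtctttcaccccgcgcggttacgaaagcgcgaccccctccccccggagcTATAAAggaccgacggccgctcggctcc
The Crabp1 window held 5 GGGCGG boxes and no TATAAA. The Rbp4 window held TATAAA, starting at position -28 from the start site, and 2 GGGCGG boxes, which stay in lower case here. The second Rbp4 window held neither element. GGGCGG was found for 4 of the 7 genes, among them Rara and Rarg, which did not pass the test. TATAAA was found for Rbp4 alone. Of 32851 windows of the same length, 32.7% held GGGCGG and 12.4% held TATAAA on either strand. These shares count single windows, whereas the 4 of 7 counts genes with a match in any of their windows, so they cannot be compared directly. A match is a run of letters and was not shown to be bound.

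The retinal dehydrogenases carry out the last, irreversible step of retinoic acid synthesis. Aldh1a3 had 8.34 and 5.12 CPM in resistant CAFs (22 and 14 reads), against 184 and 191 CPM in normal CAFs (744 and 1138 reads). Both resistant libraries lay well below both normal libraries, which were close to each other. The means were 6.73 ± 2.28 CPM in resistant and 187 ± 5.11 CPM in normal CAFs (SD, n = 2 each). The log2 fold change was -4.79 ± 0.40 (SE; edgeR adjusted p = 8.03e-06), or 27.8-fold lower in resistant CAFs. It stayed between -5.18 and -4.48 over all 13 alternatives. Of its 50-base stretches, 1.15% occur in another gene, against 0.276% for Rara.

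The other dehydrogenases were scarce. Aldh1a1 had 12 and 5 reads in resistant CAFs, against 2 and 0 reads in normal CAFs, and did not pass the filter. Its ratio of pooled reads was 15.8 (resistant over normal, exact 95% counting interval 3.76 to 141), and without the filter it was called higher (log2 fold change 3.69, adjusted p = 0.00748). In the authors' deposited table Aldh1a1 is not called, with a log2 fold change of 3.8, a standard error of 1.8 and an adjusted p of 0.731. The settings of that test are not known here, so its adjusted p is not like for like with the one above. Of the 50-base stretches of its annotated transcripts, 3.06% also occur in another gene, mostly its close copy Aldh1a7, which had 3 and 2 reads in resistant CAFs and 0 and 3 reads in normal CAFs. Aldh1a2, the main enzyme of the embryo, had no read in resistant CAFs and 3 and 7 reads in normal CAFs. Against 3 counts over the group, it was at least 1.79-fold lower in resistant CAFs, and it was not called without the filter (adjusted p = 0.144).

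Levels between genes were compared per length of the longest annotated coding transcript, as CPM per kilobase (RPKM). On this scale the 3 dehydrogenases summed to 4.35 and 2.26 RPKM in resistant CAFs, against 53.9 and 56.0 RPKM in normal CAFs. Aldh1a3 supplied 55.7% and 65.7% of the sum in resistant CAFs, against 99.0% and 99.1% in normal CAFs. The lower sums in resistant CAFs thus followed Aldh1a3, and the Aldh1a1 share there rested on few reads.

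CRABP1 and CRABP2 are closely related carriers of retinoic acid; CRABP2 is known to pass it to RARs in the nucleus, and CRABP1 to keep it in the cytosol. Crabp1 had 57.2 and 64.4 CPM in resistant CAFs (151 and 176 reads), against 1.48 and 0 CPM in normal CAFs (6 and 0 reads). Crabp2 had 8.34 and 9.51 CPM in resistant CAFs (22 and 26 reads), against 148 and 129 CPM in normal CAFs (601 and 767 reads). For each gene the groups lay apart, in opposite directions.

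Crabp1 averaged 60.8 ± 5.06 CPM in resistant and 0.741 ± 1.05 CPM in normal CAFs (SD, n = 2 each), a log2 fold change of 6.52 ± 0.78 (SE; edgeR adjusted p = 6.63e-05). The ratio of pooled reads was 101.5 (exact 95% counting interval 46.1 to 279). Without normal replicate 2 the log2 fold change was 5.30. Without normal replicate 1 the group had no read, and the fitted 10.82 then depends on the prior count; both fits passed the test. In the authors' deposited table Crabp1 is called upregulated with a log2 fold change of 6.38, a standard error of 1.94 and an adjusted p of 0.0611. DESeq2 as run here gave nearly the same estimate, 6.40 with a standard error of 1.95, but an adjusted p of 0.00566. The deposited adjusted p is therefore not like for like with those of the fits made here.

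Crabp2 averaged 8.93 ± 0.829 CPM in resistant and 139 ± 13.9 CPM in normal CAFs (SD, n = 2 each). Its log2 fold change was -3.95 ± 0.39 (SE; edgeR adjusted p = 1.89e-05), or 15.5-fold lower in resistant CAFs, and ranged from -4.08 to -3.81 over the 13 alternatives. No 50-base stretch of either CRABP transcript occurs in another annotated gene. The pair thus exchanged rank: Crabp1 made up 88.9% and 88.7% of the summed CRABP level per length in resistant CAFs, against 1.15% and 0% in normal CAFs. The sums were 80.3 and 90.5 RPKM in resistant CAFs and 161 and 138 RPKM in normal CAFs.

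**Figure D2:**
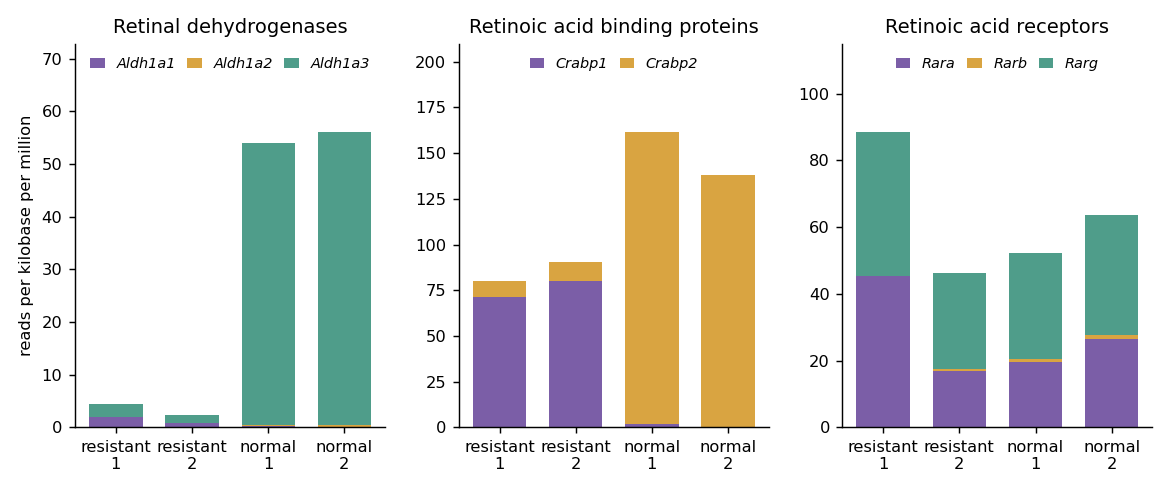
Level per transcript length (CPM per kilobase, linear axes from 0) of the retinal dehydrogenases, the CRABP pair and the retinoic acid receptors, stacked by gene, in each library. The dehydrogenase stack is low in resistant CAFs, the CRABP stack is mostly Crabp1 in resistant and nearly all Crabp2 in normal CAFs, and the receptor stacks overlap between the groups.

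The retinoic acid receptors are nuclear receptors that sit on DNA with an RXR partner. Rara had 153 and 57.4 CPM in resistant CAFs (404 and 157 reads), against 66.2 and 90.1 CPM in normal CAFs (268 and 537 reads). The resistant libraries bracketed the normal ones: replicate 1 was the highest of all and replicate 2 the lowest. The replicate difference in resistant CAFs, 1.41 on the log2 scale with 0.5 CPM added, exceeded that of 93.8% of tested genes. The means were 105 ± 67.7 CPM in resistant and 78.2 ± 16.9 CPM in normal CAFs (SD, n = 2 each). The log2 fold change of 0.43 ± 0.43 (SE) had a 95% interval of -0.50 to 1.35 and did not pass the test (edgeR adjusted p = 0.502). It was 0.97 with an adjusted p of 0.0280 without resistant replicate 2 and -0.45 with an adjusted p of 0.266 without resistant replicate 1, so a single library sets its direction.

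Rarg had 127 and 85.2 CPM in resistant CAFs (336 and 233 reads), against 94.1 and 106 CPM in normal CAFs (381 and 630 reads). The groups overlapped. The log2 fold change was 0.09 ± 0.32 (SE; edgeR adjusted p = 0.869), and its 95% interval of -0.61 to 0.79 leaves room for changes of either sign. It was -0.06 with library totals as scaling. Rarg was the retinoid gene of highest mean level (CPM), and the genes whose log2 CPM lay closest to it over the 4 libraries were Ddhd2, Rnf216 and Scamp1, with root mean square differences of 0.0818, 0.0870 and 0.0904.

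Rarb, itself a classical target of retinoic acid, was near the detection limit, with 0 and 4 reads in resistant CAFs, against 11 and 20 reads in normal CAFs. The libraries did not overlap, at 0 and 1.46 CPM in resistant and 2.72 and 3.36 CPM in normal CAFs, but Rarb did not pass the filter. Its ratio of pooled reads was 4.16 (normal over resistant, exact 95% counting interval 1.47 to 16.2), and it was not called without the filter (log2 fold change -2.05, adjusted p = 0.0900). Of its longest coding transcript, 57.7% overlaps exons of Top2b on the opposite strand, and no source states that reads were counted by strand, so reads there cannot be assigned with certainty. Top2b, a DNA topoisomerase gene, had 91.4 and 72.4 CPM in resistant CAFs, against 213 and 187 CPM in normal CAFs, and fell in the same direction (log2 fold change -1.29 ± 0.29 SE; edgeR adjusted p = 0.00477); its part in the Rarb reads was not tested.

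The Rarb promoter is shown because it carries the textbook response element of the RARs, a direct repeat spaced by 5 bases (DR5). The window is chr14:16575477-16575726 (GRCm38.p6 from RefSeq, minus strand), with the element in capitals.
Rarb: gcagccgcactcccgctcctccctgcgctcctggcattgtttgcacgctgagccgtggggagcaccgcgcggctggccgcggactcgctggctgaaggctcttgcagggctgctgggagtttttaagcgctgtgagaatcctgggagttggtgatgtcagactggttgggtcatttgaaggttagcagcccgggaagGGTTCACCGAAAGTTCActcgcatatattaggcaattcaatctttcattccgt
The element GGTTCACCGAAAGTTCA spans positions -53 to -37 from the start site. Each unit is AGGTCA, or the same with G as the first base, T as the third base, or both changes, and both strands were searched. Of 32851 windows of the same length, 29 (0.0883%) held a DR5 and 57 (0.174%) held a repeat spaced by 2 bases (DR2). Among the 13 windows of the retinoid genes, Rarb's alone held a DR5, and none held a DR2. The low Rarb counts give no measure of whether the element was bound.

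**Figure D3:**
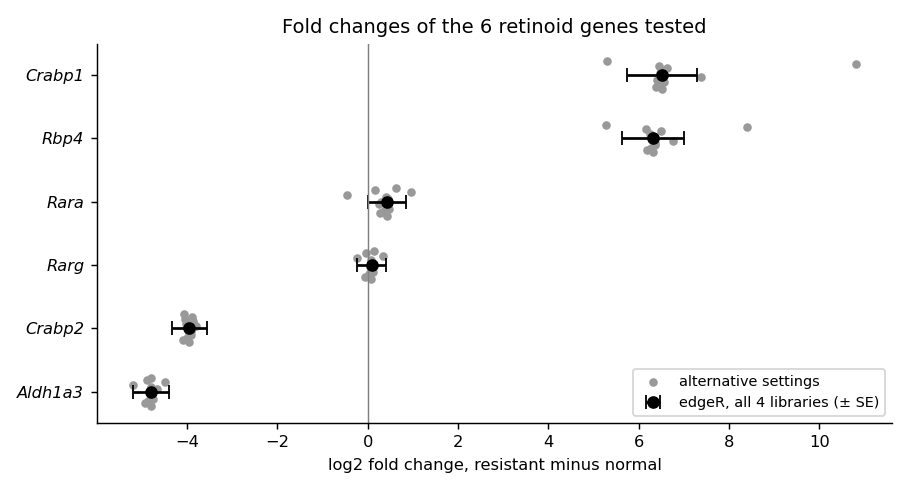
Log2 fold change (resistant minus normal) of the 6 retinoid genes that passed the filter. Black points give the fit on all 4 libraries with its SE and grey points the 13 alternative settings; Crabp1 and Rbp4 stay above 0, Crabp2 and Aldh1a3 stay below 0, and Rara and Rarg fall on both sides.

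Set in order of level per length, resistant CAFs had Crabp1 (75.8 ± 6.30 RPKM) above Rbp4 (59.8 ± 9.84 RPKM), then Rarg (36.0 ± 10.1 RPKM), Rara (45.3 and 17.0 RPKM in replicates 1 and 2) and Crabp2 (9.59 ± 0.890 RPKM), as mean ± SD with n = 2 unless both libraries are given. Rarg and Rara overlapped there, and the other neighbours among these 5 did not. Aldh1a3 (1.95 ± 0.661 RPKM) and Aldh1a1 (1.35 ± 0.816 RPKM) overlapped below them. In normal CAFs the order was Crabp2 (149 ± 15.0 RPKM), Aldh1a3 (54.4 ± 1.48 RPKM), Rarg (33.8 ± 2.78 RPKM) and Rara (23.1 ± 5.00 RPKM), with no overlap between neighbours. Rarb, Crabp1 and Rbp4 followed, at means of 0.977, 0.924 and 0.817 RPKM, and overlapped. Aldh1a2 (0.423 RPKM, within the range of Rbp4) and Aldh1a1 (0.105 RPKM) were the lowest. The 3 receptors summed to 88.4 and 46.3 RPKM in resistant CAFs, against 52.3 and 63.5 RPKM in normal CAFs, and the sums overlapped. By mean, Rarg held the third and Rara the fourth place in both groups. In resistant replicate 1, however, Rara (45.3 RPKM) stood above Rarg (43.1 RPKM).

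Beyond the 9 genes, the pathway was read from 6 lists with 60 genes in the table. Of these, 35 were tested, and 8 rose and 6 fell, or 40% called against 29.4% of all genes tested. The median log2 fold change of the 35 was 0.29, the same with Rlbp1 at its bound, against -0.0036 over all genes. Of the called genes, Adh1, Rdh12 and Cdx1 reached the filter through the resistant libraries alone, and Rlbp1 and Hoxb4 through the normal libraries alone. As for Rbp4 above, a difference was built into their entry, so their p-values are not independent of the filter. The same limit holds in part for Rarres2, whose normal libraries, at 31 and 4 reads, did not meet the filter by themselves. The share and the median are given as a description.

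Among 20 enzymes that oxidise retinol, reduce retinal or cleave carotene, 11 were tested, 3 rose and 3 fell. Dhrs9, a retinol dehydrogenase, had 242 and 157 CPM in resistant CAFs, against 20.3 and 7.22 CPM in normal CAFs, and rose by 3.88 ± 0.48 on the log2 scale (SE; edgeR adjusted p = 7.98e-05). Adh1, an alcohol dehydrogenase that accepts retinol, had 80 and 40 reads in resistant CAFs, against 7 reads in each normal library, and rose by 3.95 ± 0.59 (edgeR adjusted p = 3.25e-04). Rdh12, known from photoreceptors as a retinal reductase, rose by 3.64 ± 0.82 (edgeR adjusted p = 0.00480) with 13 and 15 reads in resistant CAFs and 0 and 4 reads in normal CAFs. Rdh10, the main retinol dehydrogenase of the embryo, had 9.86 and 5.85 CPM in resistant CAFs, against 31.4 and 36.3 CPM in normal CAFs, and fell by 2.10 ± 0.46 (edgeR adjusted p = 0.00403). Genes for the oxidation of retinol were thus called in both directions. Rdh13 (-1.48 ± 0.40, adjusted p = 0.0149) and the retinal reductase gene Dhrs4 (-1.16 ± 0.38, adjusted p = 0.0383) fell as well. Rdh13 lost its call without normal replicate 2 (adjusted p = 0.277), and Dhrs4 without either normal library (adjusted p of 0.202 without the first and 0.325 without the other), with abundance offsets (adjusted p = 0.0705) or with at least 50 reads in 2 libraries (adjusted p = 0.0512). Of the rest, Adh7 stood at -0.03 ± 0.30 and Dhrs3, which reduces retinal to retinol and is induced by retinoic acid, at -0.71 ± 0.37 (adjusted p = 0.176). Dhrs9 was 4.73 without normal replicate 1 and 3.26 without normal replicate 2, Adh1 3.34 without resistant replicate 1, and Rdh12 2.85 without normal replicate 1 and 7.03 without normal replicate 2, all past the test. The last is a fit against a lone normal library with no read and depends on the prior count.

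Of 10 genes for transport, uptake and storage, 3 were tested, none rose and 2 fell. Rlbp1, a retinal binding protein known from retinal pigment epithelium and glia of the eye, had no read in resistant CAFs and 16 and 24 reads in normal CAFs, at least 7.16-fold lower against 3 counts over the group (edgeR adjusted p = 0.00243). Dgat1, which can esterify retinol, stood at -1.11 ± 0.50 and did not pass (adjusted p = 0.119), though leaving out resistant replicate 1 gave -2.02 with an adjusted p of 0.0136. It was also called with library totals (adjusted p = 0.0448) and with no filter (adjusted p = 0.0414). Stra6, the receptor for RBP4, had 3 and 1 reads in resistant CAFs and 0 and 1 reads in normal CAFs. Ttr, the blood partner of RBP4, had no read, and Lrat, which encodes the enzyme that esterifies retinol in storing cells, had 2 and 1 reads in resistant CAFs and none in normal CAFs; both were named after their values were seen. The mRNA of the carrier Rbp4 was thus well above the limit of detection in resistant CAFs, while that of its receptor was near it. At that limit, 3 reads are 1.14 and 1.1 CPM in resistant replicates 1 and 2.

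The CYP26 enzymes, which clear retinoic acid and whose genes it induces, were not measurable. Cyp26b1 had 8 and 1 reads in resistant CAFs and 3 and 5 reads in normal CAFs, and Cyp26c1 had 3 and 3 reads in resistant CAFs and 0 and 3 reads in normal CAFs. Cyp26a1, named after its values were seen, had no read in any library. None of the 3 passed the filter, so no difference was detectable at this depth.

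The partners of the RARs did not pass the test. None of the 4 tested genes of the RXR and FABP5 route passed edgeR's test, at log2 fold changes from 0.35 to 1.13. Rxra had 113 and 82.3 CPM in resistant CAFs, against 84.0 and 32.1 CPM in normal CAFs, at 0.76 ± 0.44 (adjusted p = 0.225). Its value was 1.55 without normal replicate 1 and 0.19 without normal replicate 2, with no call in either fit. Rxrb, named after its values were seen, had 95.5 and 71.7 CPM in resistant CAFs and 49.9 and 53.2 CPM in normal CAFs, at 0.70 ± 0.35 (adjusted p = 0.156). Its ranges lay apart, and it was called without resistant replicate 2 (0.89, adjusted p = 0.0345). Fabp5, a fatty acid binding protein that can carry retinoic acid to PPAR delta, stood at 0.35 ± 0.31 (adjusted p = 0.454), and at 0.65 with an adjusted p of 0.0421 without resistant replicate 1.

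Of 7 corepressors and coactivators, Crebbp, which encodes the acetyltransferase CBP, rose by 1.54 ± 0.39 (edgeR adjusted p = 0.0100), with 303 and 195 CPM in resistant CAFs, against 121 and 50.9 CPM in normal CAFs. It lost its call without resistant replicate 1 (adjusted p = 0.0670) and normal replicate 2 (1.01, adjusted p = 0.221). Its value was 2.23 without normal replicate 1. The corepressor gene Ncor1 stood at 0.58 ± 0.36 (adjusted p = 0.264) and did not pass, nor did it at 1.23 without normal replicate 1 or at 0.075 without normal replicate 2.

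Of 15 genes known from other systems to respond to retinoic acid, 10 were tested, 4 rose and 1 fell. Rarres2, which encodes the chemoattractant chemerin, had 102 and 127 CPM in resistant CAFs, against 7.66 and 0.671 CPM in normal CAFs, and rose by 4.87 ± 0.72 (edgeR adjusted p = 2.88e-04). The rise was 7.30 without normal replicate 1 and 3.88 without normal replicate 2, where it also passed. Tgm2, tissue transglutaminase, had 79.2 and 53.0 CPM in resistant CAFs and 11.1 and 20.98 CPM in normal CAFs, a rise of 2.03 ± 0.44 (edgeR adjusted p = 0.00408) that was not called without normal replicate 1 (adjusted p = 0.133). The homeobox gene Meis1 rose by 1.97 ± 0.36 (edgeR adjusted p = 0.00123), with 87.9 and 96.2 CPM in resistant CAFs against 23.2 and 23.7 CPM in normal CAFs. It missed the threshold without normal replicate 1 (adjusted p = 0.0589) or 2 (adjusted p = 0.0613) although its value there was 1.91 and 1.96. Cdx1, a caudal-type homeobox gene, rose by 2.95 ± 0.85 (edgeR adjusted p = 0.0193) on 16 and 9 reads in resistant CAFs and 0 and 6 reads in normal CAFs. Hoxb4 fell by 2.24 ± 0.65 (edgeR adjusted p = 0.0201) on 5 and 4 reads in resistant CAFs and 20 and 65 reads in normal CAFs. Both lost their calls with DESeq2 (adjusted p = 0.0987 for Cdx1 and 0.0913 for Hoxb4). Cdx1 also lost its call when resistant replicate 1 was left out (adjusted p = 0.136) and when normal replicate 1 was (2.12, adjusted p = 0.0740), and it was 6.87 without normal replicate 2, again against a lone normal library with no read. Leaving out either resistant library ended the Hoxb4 call (adjusted p of 0.0680 without the first and 0.106 without the other). So did leaving out normal replicate 2, at -1.56 with an adjusted p of 0.186. The orphan receptor genes Nr2f2 (-0.94 ± 0.36, adjusted p = 0.0715) and Nr2f1 (-0.12 ± 0.46, adjusted p = 0.874) did not pass, and Nr2f2 was called lower with library totals (-1.09, adjusted p = 0.0236) and with no filter (adjusted p = 0.0270). Genes called responsive thus included some that rose and 1 that fell, while Rarb and the Cyp26 genes, classical targets, had at most 20 reads in any library.

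**Figure D4:**
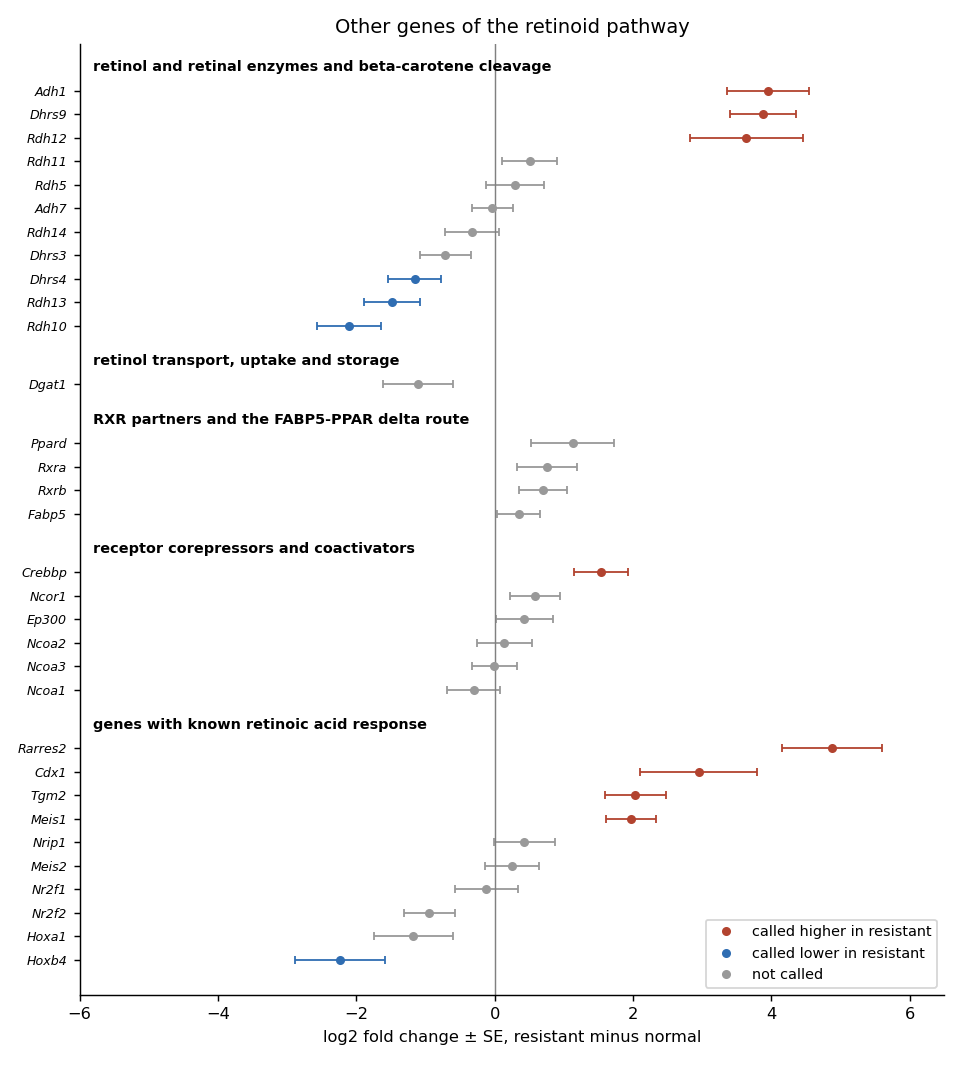
Log2 fold change ± SE (resistant minus normal) of tested genes of the wider pathway, by list; red is called higher, blue called lower and grey not called in resistant CAFs. Rlbp1 is left out because it had no read in resistant CAFs, genes not reported here are left out too, and calls in both directions occur among the enzymes and among the responsive genes.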

How the data were processed

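The read counts per gene symbol are as the authors deposited them; per the submitters' processing notes, bcl2fastq 2, TopHat2 2.1.1, Picard 1.62, HTSeq 0.7.2, DESeq2 and the build mm9 were used, with the build's annotation, the tools' roles and a strand setting not given in the sources used here. Both a TruSeq and a SMART-seq2 preparation are described, per the labels' protocols, without saying which libraries had which, so a preparation difference and the group cannot be told apart. A table of the authors' own comparison holds log2 fold changes, positive where resistant is above normal, and p-values, quoted as deposited.

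The test was edgeR's quasi-likelihood test (glmQLFit, glmQLFTest; edgeR 4.0.16, R 4.3.3) after filterByExpr (minimum count 10) and TMM scaling. Its single term was the group, resistant minus normal. p-values were adjusted over all 12001 genes tested, with a threshold of 0.05. The SE is the absolute log2 fold change divided by the square root of F. All 4 libraries entered, and p-values given with no tool come from this fit. The procedure was run on simulated counts with 200 changed genes, drawn at edgeR's own fitted trend of replicate variation. Such counts lack the extra variation of single genes, so the run checks the code and not the p-values. Counting intervals are exact at 95%, a count of 0 allows up to 3 counts, and neither covers more than counting error, there being no molecular identifiers.

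Transcript lengths, exon overlaps and shared 50-base stretches came from GENCODE M21 (GRCm38), not the mm9 build of the reads. The exon overlaps were taken from GRCm38 coordinates, and 99.4% of tested genes had an exonic length. The alternatives were relative log expression factors, library totals, a minimum of 50 reads in 2 libraries or no minimum, DESeq2 1.42.0, voom in limma 3.58.1, a replicate block, loess offsets (span 0.5) along mean log2 CPM (abundance) or length, and each library left out, with the same genes tested.

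The members and lists were chosen with earlier results of these data known. The naming rule took all members, every called gene of the wider lists, the 2 uncalled genes of highest mean CPM in each list, and the 3 nearest genes to the member of highest mean CPM; some genes of these lists enter the counts but are not reported here.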

Additional observations from a re-analysis of the deposited data

How the results depend on the processing

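The calls of Rbp4, Crabp1, Crabp2 and Aldh1a3 held in all 13 alternatives, and the count of called retinoid genes was 2 higher and 2 lower in each, except for 3 higher with no low-count filter (Aldh1a1 added) and without resistant replicate 2 (Rara added). Over all genes, leaving out single libraries gave 1057 to 2104 higher and 925 to 2357 lower calls, against 1857 and 1668 with all libraries, and the lowest counts came without normal replicate 2 (1182 higher and 1066 lower without normal replicate 1). In the wider pathway, leaving out single libraries gave 5 to 9 higher calls (fewest without normal replicate 1) and 2 to 6 lower calls (fewest without normal replicate 2), and a minimum of 50 reads in 2 libraries gave 5 higher and 3 lower: Adh1, Rdh12, Cdx1, Rlbp1 and Hoxb4 were no longer tested, and Dhrs4 was tested but lost its call (adjusted p = 0.0512). A fit without 1 library assumes that the lone library of its group varies like the other group.

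The replicate numbers were not treated as pairing the libraries: same-numbered libraries deviated together with a correlation of 0.217 across genes, and there are only 2 pairs. With the replicate block, 2257 genes were called higher and 2267 lower, 2 retinoid genes were called in each direction, and 11 wider pathway genes were called higher and 8 lower. The calls the block added were Rxra (0.89, adjusted p = 0.0319), Ppard (1.10, adjusted p = 0.0342) and Ncor1 (0.66, adjusted p = 0.0444), higher, and Dgat1 (-1.22, adjusted p = 0.0161) and Nr2f2 (-0.87, adjusted p = 0.0325), lower. For Aldh1a3, edgeR's adjusted p was 1.68e-28 with the block and 1.54e-25 with no filter, against 8.03e-06 in the main fit. DESeq2 gave 2.86e-27 for Aldh1a3 while calling fewer genes than the main fit, 1715 higher and 1602 lower. A small p for this gene is thus no measure of how liberal a fit is. Calls added by the block or by dropping the filter came from fits that called more genes than the main fit. With no filter, 2163 genes were called higher and 2142 lower. Replicates differed by more than sampling noise, with a mean chi-square per gene of 18.6 between resistant and 11.8 between normal replicates.

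Depth limits Aldh1a1, Aldh1a2, Rarb, Stra6 and the Cyp26 genes, for which a handful of reads decides every value.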
